A study of Rattus norvegicus with 16 samples.

Results

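The data described here are an RNA immunoprecipitation (RIP) from the dorsal horn of the spinal cord of wild-type rats with bone cancer pain, set against its own input RNA. All rows of the deposited table of RIP target genes were taken, 8671 genes of the 30825 genes named in the files of the series, and no gene was chosen by its values here. The table itself is a selection by its authors: it held no gene with a log2 fold of IP over input below 1.007 or with a p-value above 0.0488 in the authors' deposited table. Each gene has a value in 2 IP and 2 input libraries, 1 of each from either of 2 biological replicates, so a limit on the authors' fold over both replicates shaped all folds below, although a ratio within 1 pair can lie under it, and IP was not tested against input. The rest of the series comprises 12 libraries for N4-acetylcytidine (ac4C), an acetylated cytidine in RNA, as 3 IP and input pairs of wild-type control rats and 3 of wild-type rats with bone cancer pain. The labels give the same acetylated RNA pull-down kit for all 16 samples. Another target of the RIP antibody, the strain, age and sex of the rats, the tumour cells, the day of sampling and whether a replicate is 1 rat or a pool are not stated in those labels. p-values below therefore measure the spread between these samples only.

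In a RIP, an antibody pulls down a protein or a modified base together with the RNA that carries it, and the RNA recovered is compared with the RNA that went in. The dorsal horn receives pain fibres from skin, muscle and bone, and holds excitatory and inhibitory neurons, astrocytes, microglia and the oligodendrocytes that wrap axons in myelin. ac4C is written on RNA by Nat10, and it is best known from ribosomal and transfer RNA.

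The values were RPKM (reads normalised to gene length and to the reads of the library). The lowest value of any gene was 1.0 RPKM in either input, so genes with a weaker input are not covered. For every gene, the smallest length that made its values whole numbers of reads in all 4 libraries was taken, so depth could be read from the table. Reads given below are thus the lowest possible counts. The scale was set by 9 miRNA genes, whose hairpin lengths in RefSeq (build GRCr8) gave whole reads and whole library totals in all 4 libraries. The totals were 13979452 and 15291907 reads for inputs 1 and 2, and 13148742 and 12929865 reads for IPs 1 and 2. Of the 25 miRNA genes in the table, 9 matched a RefSeq hairpin by symbol. Another 2 matched by synonym, and their recovered lengths differed from the hairpin (108 against 94 bases for Mirlet7c-1, 107 against 98 bases for rno-mir-344a-1). The hairpins below are shown because they fixed this scale and because they are the shortest genes with a sequence at hand. Capitals mark the seed (bases 2 to 8) of each mature miRNA found in the hairpin, and the 11 mature arms of the 9 genes held 11 different seeds.
Mir21: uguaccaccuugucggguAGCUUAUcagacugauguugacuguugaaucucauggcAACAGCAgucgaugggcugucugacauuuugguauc
Mir127: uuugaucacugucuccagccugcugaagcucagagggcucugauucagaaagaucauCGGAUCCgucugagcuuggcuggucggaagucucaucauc
Mir186: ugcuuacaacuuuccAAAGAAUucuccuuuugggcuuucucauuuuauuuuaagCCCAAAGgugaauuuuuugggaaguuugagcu
Mir344a-2: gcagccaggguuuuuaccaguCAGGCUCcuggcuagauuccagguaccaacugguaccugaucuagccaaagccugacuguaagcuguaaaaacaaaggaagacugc
Mir344g: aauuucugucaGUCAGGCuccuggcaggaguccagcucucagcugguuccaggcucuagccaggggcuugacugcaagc
Mir568: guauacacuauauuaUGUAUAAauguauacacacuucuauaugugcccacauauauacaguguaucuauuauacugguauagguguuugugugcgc
Mir21 lies on chromosome 10 at 71902600 to 71902691 (minus strand), and Mir127 on chromosome 6 at 134328454 to 134328550 (plus strand). Mir186 lies on chromosome 2 at 249241650 to 249241735 (plus strand), and Mir568 on chromosome 11 at 70559859 to 70559954 (minus strand). Mir344a-2 and Mir344g both lie on the minus strand of chromosome 1, at 124655022 to 124655128 and at 124754942 to 124755020. Coordinates are those of GRCr8, not of the rn6 build that the submitters' processing notes name.

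The genes of the table took 14.1% and 15.1% of all reads in inputs 1 and 2, against 78.9% and 79.5% in IPs 1 and 2. Reads outside the table, which are not analysed here gene by gene, went from 85.9% and 84.9% of the inputs to 21.1% and 20.5% of the IPs. A fold relative to all reads of a library thus contains a shift shared by all genes of the table, 2.48 in pair 1 and 2.4 in pair 2 on the log2 scale. Scaled to the reads of the table alone, the median log2(IP/input) was -0.03 in place of 2.41. Folds below are per library unless said otherwise, and the higher and lower genes are higher and lower relative to that shift. A gene had a median of 109 and 127 reads in the inputs and of 555 and 549 reads in the IPs.

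IP exceeded input in both pairs for all 8671 genes. The median log2(IP/input) was 2.45 in pair 1 and 2.37 in pair 2, and 2.41 for the mean of the pairs, a 5.33-fold difference. The middle 50% of the genes lay between 2.08 and 2.71, and the extremes were 1.00 and 5.85. In both pairs, 397 genes reached a log2 of 3 (4.58% of the table), and 1178 genes stayed under 2 (13.6%). With the pairs pooled, as mean IP over mean input with no replicate block, 726 genes reached 3. The pairs ranked the genes alike in part: Pearson's r across the 8671 genes was 0.65 and Spearman's rho 0.66, over genes that share 4 libraries and are not independent. The agreement followed depth. With 1 to 50 input reads in both libraries together, r was 0.36 over 430 genes and the difference between pairs had an SD of 0.92. With over 2000 input reads, r was 0.94 over 247 genes and the SD was 0.19. Counting error alone would give SDs of 0.68 and 0.06 for these differences, so replicates differed by more than the counting of reads.

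**Figure D1:**
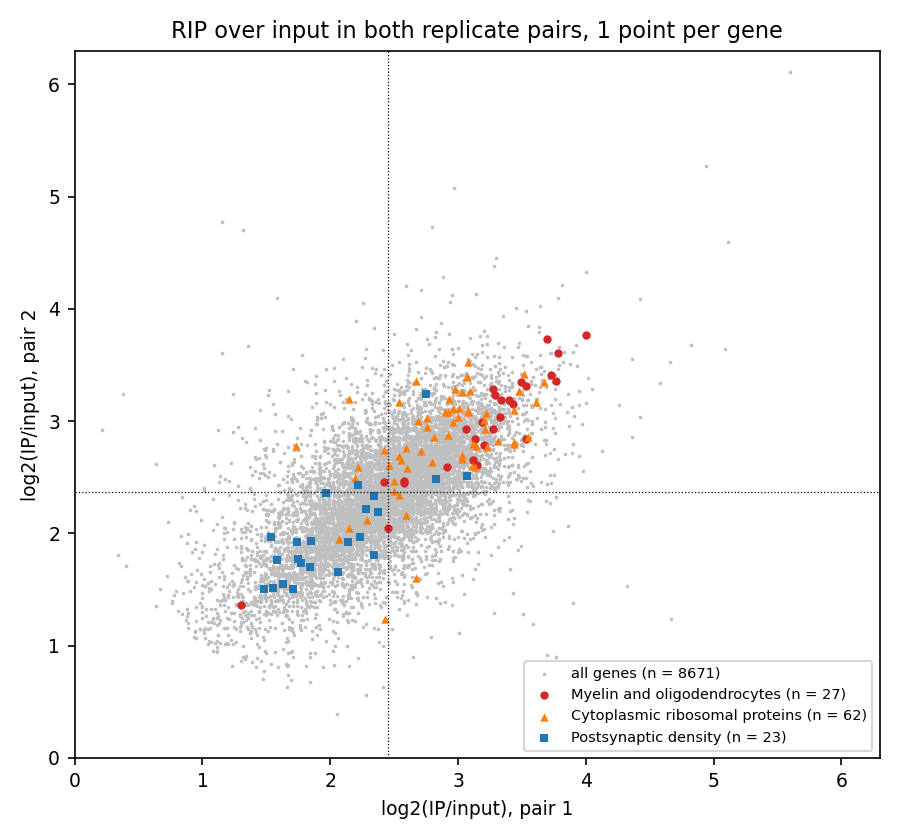
log2(IP/input) of each gene in pair 1 (x axis) and pair 2 (y axis), with 3 gene lists in colour and dotted lines at the pair medians of 2.45 and 2.37. Most of the 27 myelin genes lie to the upper right of both medians, and most of the 23 postsynaptic density genes to the lower left.

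Among the 3784 protein-coding genes whose input was at or above the median in both pairs, the 10 with the highest ratio included several known from oligodendrocytes and their myelin. Ugt8, which makes the myelin lipid galactosylceramide, measured 34.8 and 40.3 RPKM in the inputs and 477 and 491 RPKM in the IPs. Both IPs lay far above both inputs, and its log2(IP/input) was 3.78 and 3.61. Cnp, an enzyme of uncompacted myelin, measured 54.7 and 68.3 RPKM in the inputs and 724 and 725 RPKM in the IPs, with ratios of 3.73 and 3.41. Klk6, a protease of oligodendrocytes, had ratios of 3.92 and 3.68, and Opalin, a membrane protein of myelin, 3.77 and 3.36. Tf (transferrin, the iron carrier that oligodendrocytes also make) had 3.67 and 3.45, and Evi2a 3.95 and 3.27. The other 4 were S100a1, a calcium-binding protein (3.64 and 4.03), RGD1562378 (3.78 and 3.46), Sdf4, a calcium-binding protein of the Golgi (3.76 and 3.41), and Trak2, an adaptor for the transport of mitochondria (3.53 and 3.58). S100a1 and RGD1562378 rest on few input reads, 27 and 25 for the first and 16 and 20 for the second. Ugt8, by contrast, had 1734 and 2197.

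The 10 genes at the lower end, by the same rule, sat at the floor of the table, with mean ratios from 1.01 to 1.06. They were Dynlt3 (a dynein light chain), Auts2, Sema3c (a secreted guidance cue), Lrrtm2 (a synaptic adhesion protein), Ugcg (which makes glucosylceramide), Tm2d1, Slc24a2 (a sodium, calcium and potassium exchanger), Uba3 (an enzyme of the NEDD8 pathway), Prrg1 and Tor1aip1. Slc24a2 was the most deeply read of them, with 5878 and 6638 input reads and 11450 and 11512 IP reads. Its level was 47.6 and 49.2 RPKM in the inputs and 98.7 and 101 RPKM in the IPs, and its ratios of 1.05 and 1.04 differed by 0.01. Dynlt3 measured 34.3 and 31.5 RPKM in the inputs and 65.5 and 66.6 RPKM in the IPs. On the scale of the table's own reads Slc24a2 and Dynlt3 lay at -1.40 and -1.43. The 3 genes nearest to the authors' fold limit were Dynlt3, Auts2 and Dhdh, each with a log2 fold of 1.01 in the authors' deposited table. Genes just outside that limit are not analysed here.

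The protein-coding genes with the highest input were not at one end of the ratio. Mbp, the main protein of compact myelin, measured 984 and 1137 RPKM in the inputs and 11379 and 11248 RPKM in the IPs. It took 0.213% and 0.246% of the input reads and 2.46% and 2.43% of the IP reads, with ratios of 3.53 and 3.31. Apod, a lipid carrier of glia, had ratios of 3.56 and 3.24. Cst3, a protease inhibitor made by astrocytes and microglia, had 3.32 and 3.19. Scd2, a fatty acid desaturase, lay nearer the middle with 2.87 and 2.77, as did Fth1, the ferritin heavy chain (2.75 and 2.60), and Zwint (2.60 and 2.56). Tmsb4x, an actin-binding peptide, and Hba-a2, a haemoglobin chain of red blood cells, were at the median of the table with mean ratios of 2.4 and 2.44. Hba-a2 has close copies in the genome, and the division of their reads is not stated in the sources used.

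The ratio differed little with the input level. Genes were put into 10 equal bins of mean input, from 1.01 to 1.49 RPKM in the lowest to 12.4 to 1934 RPKM in the highest. The median of the mean ratio stayed between 2.39 and 2.45. The lowest bin had 2.45 and the highest 2.44. Spearman's rho with mean input across the 8671 genes was -0.01. Ratio and input share the input reads, so a low input by chance raises the ratio. Set against the input of the other pair, which the ratio does not contain, the lowest bin had medians of 2.30 and 2.29 and the highest 2.49 and 2.39 (pairs 1 and 2). Both inputs stop at 1.0 RPKM, which can also bear on the lowest bin, and its effect was not tested. The spread between pairs narrowed with level: the SD of the difference was 0.45 in the lowest bin and 0.29 in the highest. In the highest bin 64 of 867 genes reached 3 in both pairs and 156 stayed under 2, against 47 and 102 of 868 genes in the lowest.

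The ratio was somewhat higher in short genes. In the shortest of 10 bins of length (25 to 870 bases) the median was 2.52 and 88 of 868 genes reached 3 in both pairs. In the longest bin (5268 to 23724 bases) it was 2.38 and 23 of 867 genes did. The medians of the bins were never below 2.34, and rho across genes was -0.10. Both pairs had their highest median in the shortest bin, 2.54 and 2.5. That bin also held the fewest reads, a median of 65 input reads per gene, and 20.5% of it was not protein-coding. A recovered length is the smallest that gives whole reads, so the true length of a gene can be a multiple of it. Its reads would then be the same multiple of those given. In the ac4C peak lists, 129 genes had a peak exactly as wide as the recovered length, and 45 had a wider one.

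**Figure D2:**
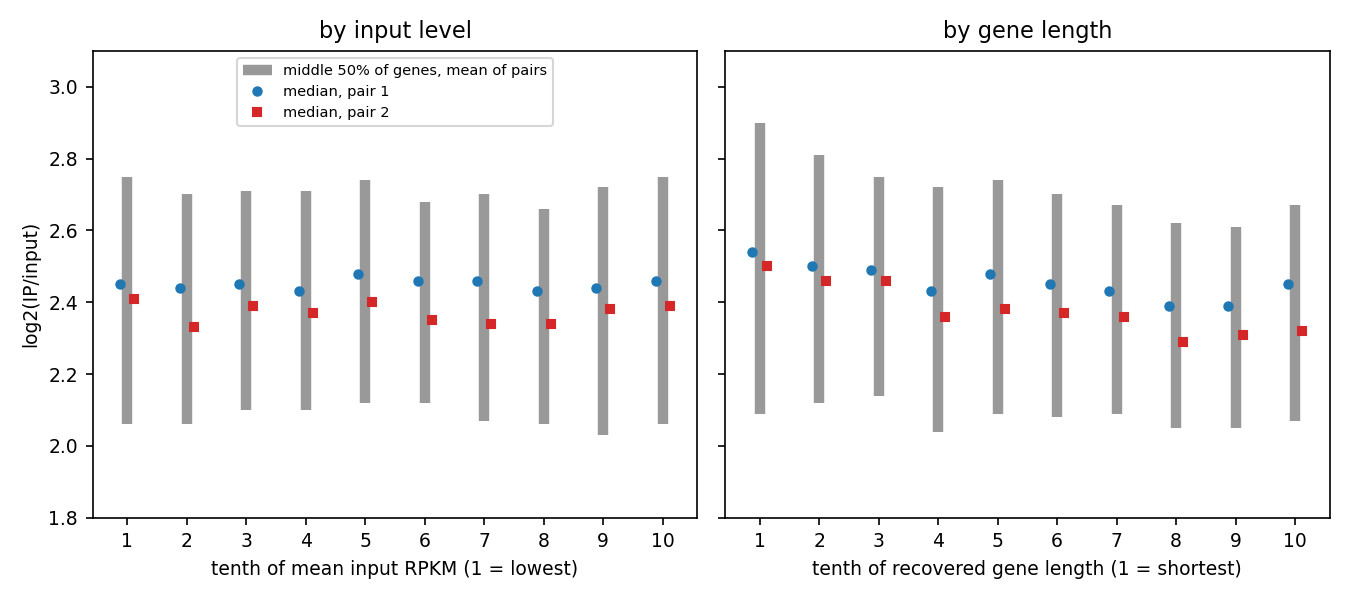
Medians of log2(IP/input) in pair 1 (circles) and pair 2 (squares) over 10 bins of mean input (left) and of recovered gene length (right), with grey bars for the middle 50% of genes by the mean of the pairs. The axis does not start at 0. The medians are nearly level over input and decline from 2.54 and 2.5 in the shortest bin to 2.45 and 2.32 in the longest.

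By biotype, protein-coding genes made up 8420 of the 8671 and had a median of 2.42. The 251 others had 2.33, and 24 of them reached 3 in both pairs (9.56%, against 4.58% of the table). They had a median of 50 input reads, however. In the lowest of 10 bins of input reads (median 51, 17.5% not protein-coding), 8.64% of genes reached 3 in both pairs, a share close to theirs. The highest ratio of all, 5.6 and 6.11, was that of SNORA63, a snoRNA with only 2 input reads in each library. Both Y RNA genes also lay high. The 9 snRNA genes had a median of 3.09, but only 3 of them, a U4 and both U1 genes, had over 50 input reads in the 2 libraries together, and both U1 genes lay below the table's median. The Y RNA gene with the highest input, a short RNA bound by the Ro60 protein, measured 404 and 619 RPKM in the inputs and 13955 and 15019 RPKM in the IPs. Its ratios were 5.11 and 4.6, and they rest on 632 and 1061 input reads. The other Y RNA gene had 3.79 and 3.50. U4, a spliceosomal RNA, had 205 and 255 input reads and ratios of 3.42 and 3.34. U1, another spliceosomal RNA, lay lower: its more abundant copy measured 28.8 and 34.3 RPKM in the inputs and 80.2 and 99.0 RPKM in the IPs, with ratios of 1.48 and 1.53. A U5 gene had 4.94 and 5.27 on 6 and 5 input reads. 7SK RNA, which holds back transcription elongation, had 2.76 and 2.79 on 17 and 21 input reads. Copies of these RNAs are near-identical, so their split between genes is uncertain.

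The snoRNAs, which guide the modification of ribosomal RNA, had a median of 2.69 over 56 genes. Of the 56, 9 (16.1%) reached 3 in both pairs, against 4.58% of the table. With at least 20 input reads the snoRNA median was only 0.04 above the table's, against 0.28 over all 56. The difference thus rested on genes with few reads. SNORA48 (2.4 and 2.26) and snoU85 (2.45 and 2.72) had 346 and 358 input reads and lay near the middle of the table. SNORD107 had 1.42 and 2.04. The 9 genes of SNORD115 and SNORD116, neuronal snoRNAs of an imprinted cluster, all lay above the table's median, from 2.70 to 4.37. SNORD116 with the most input had 41 and 60 input reads and ratios of 3.62 and 3.20, and SNORD115 with the most had 12 and 35 reads and ratios of 5.09 and 3.64. The copies are alike in sequence, so these 9 genes are not 9 separate measurements. The 6 scaRNAs, which guide the modification of spliceosomal RNA, spread from 1.28 (SCARNA6) to 3.73 (another SCARNA6 gene). SCARNA2 had 3.52 and 2.88 and SCARNA7 2.19 and 1.95.

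The 25 miRNA genes had a median of 2.22. None reached 3 in both pairs, as 4.58% of the table did, so few would be looked for among 25. Under 2 in both pairs were 7 (28.0%), against 13.6% of the table. With at least 20 input reads the miRNA median was 0.61 below the table's, against 0.19 over all 25. Mir568 measured 34.3 and 46.3 RPKM in the inputs and 91.9 and 81.4 RPKM in the IPs. Its log2(IP/input) was 1.42 (95% interval 0.92 to 1.95) and 0.81 (0.36 to 1.28). Mir186 had 1.43 (0.82 to 2.07) and 1.09 (0.46 to 1.74). Mir21, a widely expressed miRNA, had 4 and 2 input reads against 19 and 24 IP reads, with ratios of 2.34 (0.75 to 4.35) and 3.83 (1.82 to 6.95). Mir127 had 3.00 (1.49 to 4.96) and 1.83 (0.76 to 3.02), and Mir344a-2 had 3.03 (1.8 to 4.55) and 1.63 (0.77 to 2.56). These exact binomial intervals cover counting error only. Those of Mir568, Mir186 and Mir5125 lay wholly below the median of the table in both pairs. Library reads over a hairpin can come from the host transcript or the precursor, and the data do not separate them from the mature miRNA.

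Long noncoding RNAs lay lowest. The 31 lincRNA genes had a median of 1.85, with 12 (38.7%) under 2 in both pairs, against 13.6% of the table. Their difference from the table kept its sign in all 8 alternative settings (-0.73 to -0.44). Of these, crossing the pairs and scaling to the table's reads cannot change such a difference, so they do not bear on it. They included 3 genes that were among the 5 with the highest input of the table. Rn60_1_2212.3 measured 1923 and 1944 RPKM in the inputs and 6129 and 6286 RPKM in the IPs, with ratios of 1.67 and 1.69. Rn60_1_2212.2 had 1.66 and 1.63, and Rn60_1_2212.4 had 1.19 and 1.02. At the other end, AABR07008030.1, chosen after its values were seen, had 3.65 and 3.48. The 59 pseudogenes and 25 processed transcripts lay close to the table, with medians of 2.30 and 2.31. Ubb, annotated as a pseudogene here and a ubiquitin gene by name, had 2.34 and 2.13.

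**Figure D3:**
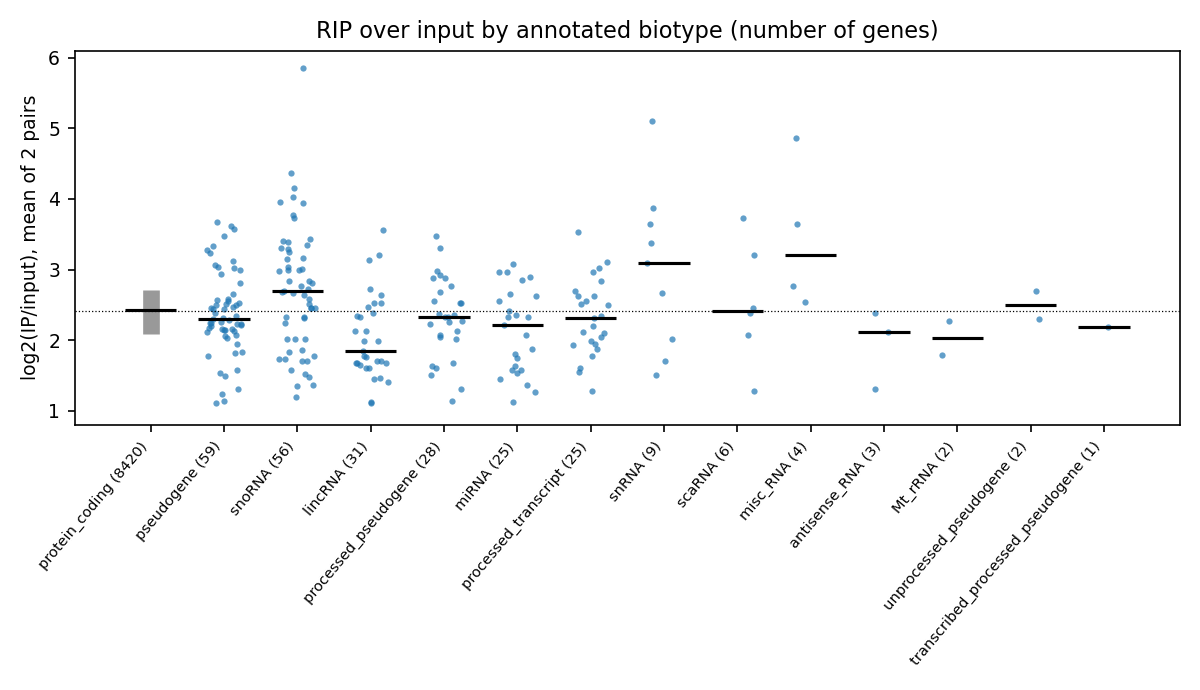
Mean log2(IP/input) of each gene by annotated biotype, with a black line at the median of each biotype and a grey bar for the middle 50% of the protein-coding genes; the dotted line is the median of the table, 2.41. snRNA and misc_RNA (Y RNA and 7SK) have medians of 3.09 and 3.21, and lincRNA 1.85.

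Genes were then grouped by 34 lists of pathways and cell types, 27 of them with at least 10 genes in the table. Against the table, 10 of the 27 lists lay higher by at least 0.20 with the same sign in both pairs, and 8 lay lower. Counts of list members below stand beside 4.58% of all genes at 3 or more in both pairs and 13.6% under 2. Myelin genes stood highest. Of 28 listed, 27 were in the table, their median was 3.18, 25 lay above the table's median, and 13 (48.1%) reached 3 in both pairs. The pair medians were 3.27 and 2.99. Ncmap, a myelin-associated protein, was highest at 4.0 and 3.77, on few reads. Mog, a surface protein of myelin, measured 24.0 and 29.4 RPKM in the inputs and 242 and 241 RPKM in the IPs, with ratios of 3.33 and 3.04. Cldn11, the tight junction protein of myelin, had 3.40 and 3.19, and Enpp2 (autotaxin) 3.49 and 3.35. The transcription factors of the lineage lay lower: Olig2 measured 7.15 and 6.69 RPKM in the inputs and 17.6 and 17.2 RPKM in the IPs, with ratios of 1.30 and 1.36, the lowest of the list. Sox10 had 2.45 and 2.05 and Myrf 2.58 and 2.45, while Nkx6-2 had 3.70 and 3.73. Over the 10 alternative settings the list stayed 0.62 to 0.89 above the table, though crossing the pairs and scaling to the table's reads cannot change this difference.

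Cholesterol synthesis, which supplies myelin lipid, followed. Of 22 listed genes 21 were in the table, with a median of 3.00, and 7 (33.3%) reached 3 in both pairs. Cyp51, which demethylates lanosterol, measured 15.1 and 16.8 RPKM in the inputs and 179.8 and 173 RPKM in the IPs, with ratios of 3.57 and 3.36. Hmgcs1, an early enzyme of the pathway, had 3.06 and 2.98. Pmvk was highest (3.89 and 3.13) and Idi1 lowest (2.11 and 2.04). Srebf2, the transcription factor of the pathway, had 2.4 and 2.27. The 7 precursor markers of the lineage had a median of 2.72, with pair medians of 2.60 and 3.09. Pdgfra, their receptor, had 2.75 and 3.47.

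Genes of protein synthesis and energy metabolism lay above the table together. The 62 cytoplasmic ribosomal protein genes (of 79 listed) had a median of 2.93, with 53 above the table's median. Of the 62, 15 (24.2%) were at 3 or more in both pairs and 0 under 2 in both. Rpsa measured 19.3 and 21.2 RPKM in the inputs and 222 and 227 RPKM in the IPs, with ratios of 3.52 and 3.42. Rpl19 was highest (3.67 and 3.35) and Rpl39 was lowest (2.43 and 1.24). Ribosomal protein genes have many processed copies, so reads can be shared with them. The 65 nuclear genes of oxidative phosphorylation (of 83) had a median of 2.82, with 9 (13.8%) at 3 or more in both pairs. Cox6a1, a subunit of complex IV, had 2.92 and 3.17, and Uqcrb, a subunit of complex III, 1.11 and 1.25. The 38 proteasome genes had a median of 2.74, from Psma3 (1.25 and 1.17) to Psmc4 (3.74 and 2.94). The 32 translation factors had 2.61. Eef1a1, the general elongation factor, had 3.22 and 2.97, and its neuronal relative Eef1a2 had 1.92 and 1.70. Both were well read, at 63.0 and 72.6 RPKM and at 50.5 and 59.3 RPKM in the inputs. Eif4e, the cap-binding protein, was lowest of that list (1.17 and 1.36). The ribosomal and oxidative phosphorylation lists are short-gene lists, with median lengths of 699.5 and 711 bases. Within bins of length they still lay 0.45 and 0.33 above. The 61 mitochondrial ribosomal protein genes had a median of 2.64, but their difference from the table of 0.22 was 0.13 without replicate 2 and 0.03 with at least 100 input reads.

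Astrocyte genes were spread. All 22 listed were in the table, with a median of 2.67 and 16 above the table's median. Cst3, Kcnj10 (the Kir4.1 potassium channel, 3.1 and 2.93) and Apoe (3.00 and 2.98) were the highest, and S100b had 3.00 and 2.93. Gfap, the intermediate filament of astrocytes, measured 109 and 117 RPKM in the inputs and 628 and 648 RPKM in the IPs, with ratios of 2.53 and 2.47. Aqp4, the water channel, measured 160 and 155 RPKM in the inputs and 563 and 561 RPKM in the IPs, and its ratios of 1.81 and 1.86 were among the lowest of the list, next to Sox9 (1.77 and 1.51). Of 26 microglial genes, 15 were in the table, with a median of 2.67 and pair medians of 2.86 and 2.43. Their difference from the table was 0.26, but 0.06 without replicate 1 and 0.41 without replicate 2, and over genes at or above the median input it was 0.03. Ctss, a lysosomal protease, had 3.17 and 3.35, Cx3cr1 2.97 and 3.18, and Cd53 0.88 and 1.26. Lists of vessel cells lay lower: 10 endothelial genes had a median of 2.21, and 10 genes of pericytes, smooth muscle and meninges 2.16. Col3a1 (1.14 and 1.02) and Fn1 (1.26 and 1.36), both of the extracellular matrix, were near the floor. The endothelial difference shrank from -0.21 to -0.08 over genes at or above the median input. For pericytes, smooth muscle and meninges it was -0.25, but -0.11 without replicate 1 and -0.56 without replicate 2.

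Neuronal and synaptic genes lay below the table. The 14 pan-neuronal genes had a median of 2.14 with 4 above the table's median. Ina, a neurofilament protein, measured 28.7 and 31.9 RPKM in the inputs and 79.8 and 81.2 RPKM in the IPs, with ratios of 1.48 and 1.35. Nefl, the light neurofilament, had 2.32 and 2.15, Rbfox3 (NeuN) 1.6 and 1.51, and Elavl3 1.71 and 1.64. Thy1 was highest (2.81 and 2.70) and Stmn2 next (2.67 and 2.68). With 1 RPKM added to IP and input the difference of this list turned from -0.27 to 0.05; the median input of the list was 29.5 RPKM, against 3.35 RPKM for the table. The 11 excitatory dorsal horn genes had a median of 1.96. Slc17a6, the vesicular glutamate transporter of these neurons, measured 16.8 and 19.5 RPKM in the inputs and 43.2 and 43.4 RPKM in the IPs, with ratios of 1.36 and 1.15. Without pair 1 the difference of the excitatory list was -0.22 in place of -0.46. The 11 inhibitory genes had a median of 2.23: Slc6a5, the glycine transporter, had 2.71 and 2.52, Gad1 2.08 and 1.81, and the peptide Gal 3.47 and 2.61. Of the listed dorsal horn markers, 11 of 16 excitatory and 11 of 14 inhibitory genes were in the table, among them Slc17a6, Gad1, Slc6a5, Sst and Penk. Markers of other cells were few: 5 of 14 of sensory ganglia and Schwann cells (among them Pmp22), 2 of 10 of ependyma, 1 of 13 of blood (Hbb; the symbol Hba-a2 is held by more than 1 gene and was not counted) and 0 of 11 of muscle and bone. Their part in the ratios was not tested. Motor neuron genes were there as well, 5 of 8, with Chat at 2.19 and 3.05 RPKM and Slc5a7 at 12.1 and 11.6 RPKM in the inputs. In bulk RNA, fewer cells of a type and less RNA per cell cannot be told apart, and a gene absent from this table is not shown to be absent from the tissue.

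The postsynaptic density list had a median of 1.89 over 23 genes, 3 above the table's median and 11 (47.8%) under 2 in both pairs. Dlg4, which encodes PSD-95, measured 20.9 and 21.9 RPKM in the inputs and 71.4 and 73.3 RPKM in the IPs, with ratios of 1.77 and 1.74. Shank3 (1.48 and 1.5), Shank1 (1.55 and 1.51) and Nlgn3 (1.63 and 1.55) were lowest. Dlg1 (2.83 and 2.48) and Dlg2 (3.07 and 2.51), relatives of Dlg4, and Lrrc4 (2.75 and 3.24) were the 3 above the median. Of 29 presynaptic genes, 8 lay above it, and their median was 2.23. With 1 RPKM added, the presynaptic and inhibitory lists each lay 0.01 above the table in place of 0.19 below it. Vamp1 measured 120.1 and 122 RPKM in the inputs and 737 and 736 RPKM in the IPs, with ratios of 2.62 and 2.59. Its relative Vamp2, a vesicle fusion protein too, had 1.41 and 1.37. The pairs gave both genes nearly the same value, and the relatives did not overlap.

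Ion channels lay low as well. The 18 voltage-gated calcium channel genes had the lowest median of the 27 lists, 1.8, with pair medians of 2.03 and 1.74. Of the 18, 8 (44.4%) stayed under 2 in both pairs. Cacng7 measured 34.8 and 36.7 RPKM in the inputs and 93.7 and 96.7 RPKM in the IPs, with ratios of 1.43 and 1.40. Cacna2d2 had 1.45 and 1.34, whereas Cacna2d1, the alpha2delta subunit that gabapentin binds, had 2.80 and 2.5 and Cacna2d3 2.86 and 2.65. Cacna1b, the pore of the N-type channel of pain fibre terminals, had 1.95 and 1.93. The 10 sodium channel genes had a median of 2.19. Scn9a, the Nav1.7 pore, measured 1.26 and 1.20 RPKM in the inputs and 3.29 and 3.13 RPKM in the IPs (1.38 and 1.39), and Scn7a, an atypical member, 1.03 and 1.10 RPKM in the inputs and 9.95 and 9.59 RPKM in the IPs (3.26 and 3.12). For the 25 potassium channel genes the median was 2.16. In that list, the glial channels Kcnj10 and Kcnj16 were highest, and Kcna2, with the most input, had 1.89 and 1.76.

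Ionotropic glutamate receptors were spread over the whole range. The 15 genes had a median of 2.48, 4 reached 3 in both pairs (26.7%), and 4 stayed under 2 in both (26.7%). The 4 at the top were Grin3a (3.05 and 3.27), Grik2 (3.00 and 3.07), Grik4 (3.13 and 3.01) and Grid1 (3.09 and 3.03). Grik1 (1.40 and 1.27), Grik5 (1.65 and 1.61) and Grin2d (1.20 and 1.09) were at the other end. Grin1, the obligatory NMDA receptor subunit, measured 10.6 and 11 RPKM in the inputs and 59.5 and 61.1 RPKM in the IPs, with ratios of 2.48 and 2.47. Gria2, an AMPA receptor subunit, had 2.00 and 1.95. The 12 GABA and glycine receptor genes had a median of 2.23, from Gabbr2 (1.40 and 1.41) to Gabrb1 (3.49 and 2.83).

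Genes with a known part in pain were scattered. Of 29 neuropeptide, opioid and neurotrophin genes, 14 were in the table, with a median of 2.53. Oprl1, the nociceptin receptor, measured 1.78 and 2.26 RPKM in the inputs and 17.6 and 19.1 RPKM in the IPs, with ratios of 3.30 and 3.08. Oprm1, the mu opioid receptor, measured 4.15 and 3.95 RPKM in the inputs and 12.7 and 13 RPKM in the IPs, with ratios of 1.61 and 1.72. Calcrl and Ramp1, which together form the CGRP receptor, had 3.01 and 2.56 and 3.04 and 2.95. Ntrk2, the receptor of BDNF, had 2.4 and 2.41, and Sst (somatostatin) 1.72 and 1.94. Tac1, the substance P precursor, had 2.18 and 3.11, its input being 3.04 RPKM in replicate 1 and 1.72 RPKM in replicate 2. Of 27 cytokine and growth factor genes, 15 were in the table (median 2.27), with Ptn at 1.46 and 1.6 and Vegfa at 1.79 and 1.59. Of 16 immediate early genes, 6 were, with pair medians of 2.58 and 1.83. Among enzymes of RNA modification, 13 of 17 listed were in the table, and their median was 2.42. Thumpd1, a partner of Nat10 in tRNA acetylation, had 1.97 and 2.06, the m6A writer Mettl3 2.52 and 2.5 and the eraser Fto 2.67 and 2.5. Cbll1, of the m6A writer complex, was lowest (1.12 and 1.09).

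**Figure D4:**
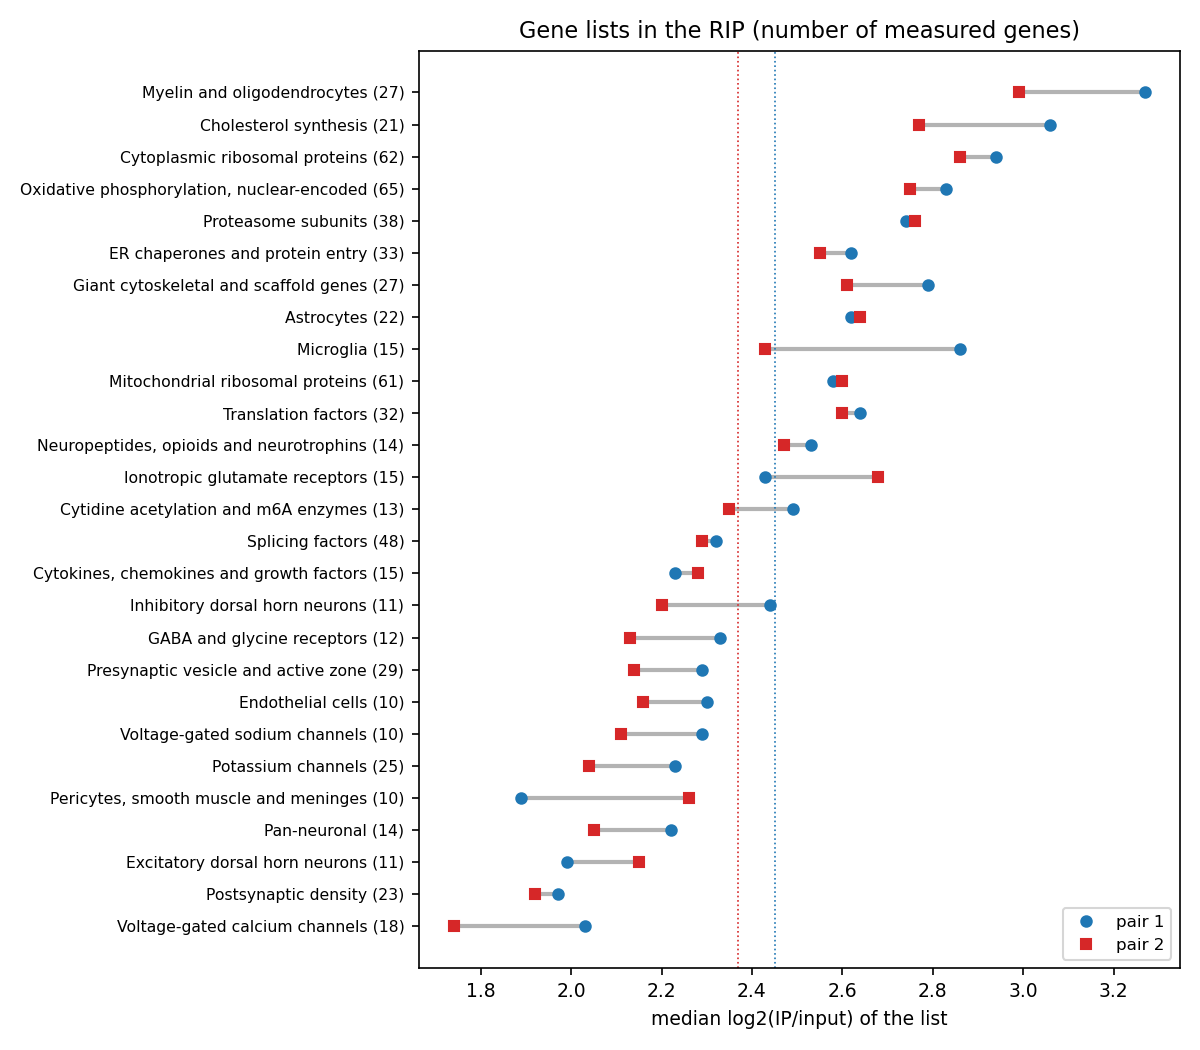
Median log2(IP/input) of 27 gene lists in pair 1 (circles) and pair 2 (squares), with dotted lines at the medians of the table in each pair. Myelin genes (3.27 and 2.99) stand at the top; the lowest pair 1 median is that of pericytes, smooth muscle and meninges (1.89), and the lowest pair 2 median that of calcium channel genes (1.74).

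The pairs differed on some genes, among them, with ample reads, the mitochondrial ribosomal RNAs, of which the table held 2. AY172581.24 measured 1039 RPKM in input 1 and 572 RPKM in input 2, against 2267 RPKM in IP 1 and 3149.9 RPKM in IP 2. AY172581.9 measured 586 and 280.2 RPKM in the inputs and 1605 and 2395 RPKM in the IPs. For both, input 1 was the higher input and IP 1 the lower IP, so their ratios were 1.13 and 2.46 for the first and 1.45 and 3.1 for the second. In replicate 1 these 2 genes lay below the table's median, and in replicate 2 above it. Among protein-coding genes with input at or above the median in both pairs, the largest difference was in Zfp580, a zinc finger protein, with 25 and 38 input reads and 163 and 68 IP reads (2.79 and 1.08). Hist2h4a, a histone gene with close copies, had 3.77 and 2.32 on 15 and 38 input reads, so both rest on few reads. The others named by the rule were short RNAs with few reads, such as a SNORD113 gene with 5 and 30 input reads (3.70 and 0.92).

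The ac4C libraries give a measure that the RIP table did not use. At a false discovery rate (FDR) of at most 0.05, 714, 831 and 807 genes of the table had an ac4C peak in the 3 control lists and 745, 979 and 681 in the 3 bone cancer pain lists. That is 9.04% ± 0.713 (SD, n = 3) of the table in controls and 9.25% ± 1.81 (SD, n = 3) in bone cancer pain. The groups overlapped, and the difference of 0.204 percentage points was smaller than the spread between replicates (two-sided exact permutation test, p = 0.90; 3 against 3 cannot go below 0.10). Without bone cancer pain replicate 2 the difference was -0.819 and without control replicate 1 it was -0.20. Conversely, between 81.7% and 89.6% of the genes of each list were in the table. Genes outside the table have no expression values here, so the share expected of equally expressed genes is not known. A peak in at least 1 of the 6 lists was found for 3195 genes (36.8%), and in all 6 for 9 genes. Among them were Macf1, Usp34, Spag9, Syne1, Kif5a, Slc35e2b, Peg3 and Plec. The RIP ratios of the 9 spread around the median of the table, from Macf1, a giant cytoskeletal linker (2.93 and 2.80), to Plec, another (2.01 and 1.65).

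The share of genes with an ac4C peak was then compared along the RIP ratio, and the difference did not pass the test after adjustment. The table was divided into 4 groups of equal size by mean ratio. In the highest group (2168 genes), the share with a peak exceeded that in the lowest (2168 genes) in 6 of 6 lists, by 0.83 to 2.77 percentage points. The mean difference was 1.64 ± 0.869 points (SD, n = 6). A two-sided exact permutation test by sign flips over the lists gave p = 0.031, the smallest it can give, and 0.062 after Benjamini-Hochberg adjustment over the 2 tests of this kind. With all peaks as deposited the mean difference turned to -0.7 points. In control list 1 the shares were 6.37% and 9.13%, and in bone cancer pain list 2 they were 9.32% and 10.2%. The share did not grow steadily with the ratio: in every list except bone cancer pain list 3, a middle group had a larger share than the highest. In bone cancer pain list 2 the group below the highest reached 13.7%, and in control list 2 it reached 10.4% against 9.41% in the highest. Genes with a peak were longer (median 3075 to 3576 bases over the lists, against 2215 to 2243 without) and had a higher input. With the RIP ratio ranked within bins of length the difference was 2.9 points and within bins of input reads 2.96 points. Ranked by pair 1 alone it was 2.13 points, and by pair 2 alone 0.992. Of the 10 protein-coding genes with the highest ratio, Trak2 had a peak in 4 lists. RGD1562378, Evi2a, Sdf4 and Opalin had a peak in 1 list each, and Ugt8, Cnp, Klk6, Tf and S100a1 in 0. Of the 27 myelin genes 17 (63.0%) had a peak in at least 1 list, against 36.8% of all genes. So did 12 of the 14 pan-neuronal genes (85.7%). The median inputs of these genes, 21.7 and 29.5 RPKM, were above the 3.35 RPKM of the table, and genes with a peak had a higher input in general. The 6 lists share the same RIP values.

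**Figure D5:**
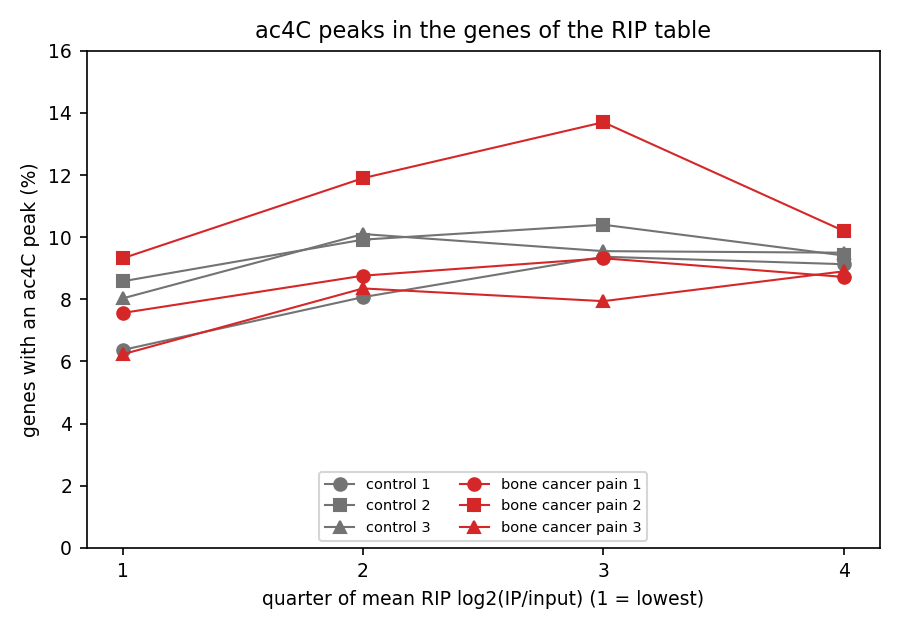
Percentage of genes with an ac4C peak (FDR of at most 0.05) in 4 groups of genes by mean RIP log2(IP/input), 1 line per peak list, grey for control and red for bone cancer pain. All 6 lines lie lower in group 1 than in group 4, by 0.83 to 2.77 percentage points, and the lines of both groups overlap.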

How the data were processed

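RIP libraries came from 2 biological replicates of bone cancer pain dorsal horn, each with an IP and an input; per the labels' titles the same number marks 1 replicate, and the deviations of IP and input from their group means correlated at -0.03 across genes. The deposited values had no stated unit and were read as RPKM made by the authors, because value times length was a whole number of reads (within 1e-05) for 8671 of 8671 genes. The authors' deposited table also gave a log2 fold, a p-value and an FDR. The submitters' processing notes name rn6, featureCounts 1.6.3, HISAT2 2.1.0, DESeq2, cutadapt 2.5 and HOMER 4.10.4, without saying which served the RIP. The ac4C peak lists, deposited 1 per pair, gave a fold ratio and a score, the log10 of the FDR. Peaks at an FDR of at most 0.05 were used, since bone cancer pain list 1 held 50417 peaks of any FDR and the others 1173 to 2416. The bone cancer pain lists carry another abbreviation (CFA) than their labels, and the groups follow the labels.

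log2(IP/input) was computed per pair without a pseudocount and averaged (Python 3.11.15, pandas 2.3.3, scipy 1.17.1). IP against input was not tested. List members were matched by symbols held by 1 gene (8564 genes). Variance between replicates exceeded counting error 3.03 times in inputs and 3.23 times in IPs by the median over genes, and 3.84 and 4.04 times by the mean. No library was thus merely the same library read again. Separate libraries from the same RNA could also exceed counting error, so these values do not show that the replicates were independent. Genes were named by rule: the 10 highest and lowest protein-coding ratios among inputs at or above the median, the 10 highest inputs, 3 genes per noncoding biotype, extremes and highest input of each list and all members of short ones, the largest pair differences, and 3 genes nearest the limit; other genes of a list were named after their values were seen. The members and lists were chosen with earlier results of these data known. Alternatives were a pseudocount, an input minimum, each pair alone, pooled and crossed pairs, other limits and scaling to the table's reads. Some genes that the rule names are not reported here.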

Additional observations from a re-analysis of the deposited data

How the results depend on the processing

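Against the median of all genes of 2.41, the values were 2.37 to 2.45 with either pair alone and 2.4 with no replicate block; adding 1 RPKM gave 2.08 and scaling to the table's reads -0.03. The count of 397 genes at 3 or more in both pairs was 816 to 1154 with 1 pair, 726 with no replicate block, 124 with 1 RPKM added, 214 over genes at or above the median input, 1 scaled to the table, 6015 at a limit of 2 and 4 at a limit of 4; crossed pairs gave 403. The pair settings ask for fewer conditions at once, and the added 1 lowers the ratio of weak genes by construction. The highest minus the lowest of 10 bins of input moved from -0.02 to 0.57 with 1 RPKM added and to 0.14 by the other pair's input, and was -0.01 to 0.01 with 1 pair. Other biotypes minus protein-coding genes moved from -0.08 to -0.03 with 1 RPKM added, -0.14 over genes at or above the median input, -0.10 with no replicate block and -0.15 with at least 20 input reads, and was -0.11 to -0.09 with 1 pair. Of the lists called higher or lower, the pan-neuronal list turned, from -0.27 to 0.05 with 1 RPKM added. For the single lists and biotypes, 229 alternatives stayed within the spread between pairs, 88 moved further and 1, this one, turned a called difference. The 229 include the crossed pairs and the scaling to the table's reads of every list and biotype. Both leave a difference from the table unchanged by construction, so the 229 overstate how stable the differences were. Differences under 0.2 also changed sign: the inhibitory and presynaptic lists from -0.19 to 0.01 with 1 RPKM added, and over genes at or above the median input the ionotropic glutamate receptors from 0.06 to -0.38 and the neuropeptide list from 0.11 to -0.11. The ac4C difference between groups was -0.819 to 0.90 without 1 list and 24.1 points with all peaks as deposited, since bone cancer pain list 1 then held most genes. The difference between the highest and lowest ratio groups turned to -0.70 points with all peaks as deposited, for the same list; without 1 list it was 1.41 to 1.8, where p cannot go below 0.062. Scaling to the table, the limits of 20 and 100 input reads and the bins of length and, for ac4C, of input reads were added after seeing the data. The cause of the other movements was not tested. Depth limits small RNAs most: genes with up to 50 input reads differed between pairs with an SD of 0.92.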
